A study of Homo sapiens with 12 samples.

Results

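The 9 genes described here, NFE2L2, KEAP1, NQO1, HMOX1, GCLC, GCLM, TXNRD1, SRXN1 and OSGIN1, are the gene of the transcription factor NRF2, the gene of its repressor, and 7 of its target genes in the defence against oxidative stress. They were chosen by gene symbol from 60662 genes, each symbol matched 1 entry, and all 9 were among the 16815 genes that were tested. Their expression was measured by RNA-seq in NCI-H295R cells, a line from a human adrenocortical carcinoma that makes cortisol. Cells in every group were grown to confluence and kept without serum for 12 h, and they then received VEH (0.1% DMSO), 30 µM CJ28 or 30 µM MET for 24 h, with 4 samples per group. CJ28 is a benzimidazolylurea derivative that the authors synthesized as a cortisol biosynthesis inhibitor, and MET is metyrapone, an inhibitor of 11β-hydroxylase. The samples are called biological replicates, but nothing further is said of how the cultures were separated, so p-values measure the spread between these samples of a single cancer line.

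NRF2 is a transcription factor whose protein is normally short-lived, because KEAP1 holds it for a CUL3 ubiquitin ligase that marks it for degradation. When reactive compounds modify cysteines of KEAP1, NRF2 escapes, enters the nucleus, pairs with a small MAF protein and binds antioxidant response elements near its target genes. The targets supply glutathione and thioredoxin reducing power, detoxify quinones, and break down heme. Since NRF2 is largely controlled as a protein, the RNA level of NFE2L2 is not a measure of its activity.

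Sequences are shown for the core letters of the antioxidant response element, because members that moved in opposite directions carry them close to the start site. The core was searched as TGACNNNGC on both strands of the 250 bases before each start site in the RefSeq promoter sequences (GRCh38.p14), which hold 11 start sites for 8 of the 9 genes, all but HMOX1. It was present before 4 of these 11 start sites, which belong to GCLM, TXNRD1 and KEAP1, and before 10.9% of all 35116 start sites in the table. Capitals mark the match, each sequence is written 5′ to 3′ on the strand of its gene, and GCNNNGTCA is the core read on the opposite strand.
GCLM, chr1:93909444-93909476, minus strand, centred 30 bases before the start: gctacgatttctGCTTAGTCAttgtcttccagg
KEAP1, chr19:10502782-10502814, minus strand, centred 27 bases before the start: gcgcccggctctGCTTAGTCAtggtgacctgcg
KEAP1, chr19:10502805-10502837, minus strand, centred 50 bases before the same start: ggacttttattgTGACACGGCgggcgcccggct
TXNRD1, chr12:104286918-104286950, plus strand, centred 98 bases before the start: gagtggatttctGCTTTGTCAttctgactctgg
TXNRD1, chr12:104215668-104215700, plus strand, centred 95 bases before another start: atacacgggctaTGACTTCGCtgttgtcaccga
The GCLM stretch and the nearer KEAP1 stretch share an unbroken run of 13 bases, the longest shared by any pair of the stretches above. The run includes the fixed letters of the core, which the search itself required. A related core, TGAGNNNGC, was found before start sites of 5 of the 8 genes and before 14.8% of all start sites. OSGIN1 is shown for it as a member that holds this core and not the other.
OSGIN1, chr16:83953129-83953161, plus strand, centred 95 bases before the start: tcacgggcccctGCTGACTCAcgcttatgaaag
Either core was found before 7 of the 11 start sites of the members and before 23.9% of all start sites. A match is a stretch of letters and not evidence of binding, and elements farther from the start were not searched.

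The deposited values are TPM, which are set per transcript length and sum to the same total in each library, so that genes can be compared with each other but the number of reads behind a value is unknown. Between 29463 and 31016 genes had a TPM above 0 in a sample. RN7SL1, RN7SL2, RN7SK and the mitochondrial rRNAs together held 59.6% to 60.9% of TPM in CJ28 against 55.0% to 58.0% in VEH and 55.5% to 57.5% in MET, and a TPM falls when such RNAs take a larger share. For CJ28 against VEH, the log2 fold changes of the tested genes had a median of -0.13 as deposited and 0.01 after median-of-ratios scaling. The adrenocortical genes NR5A1, STAR, CYP11A1, CYP17A1 and CYP21A2 were detected in all groups, and their mean TPM in VEH ranged from 28.9 for CYP21A2 to 92.6 for CYP11A1. The 5 markers of other cells were TH and DBH for chromaffin cells, PTPRC for leukocytes, PECAM1 for endothelium and COL1A1 for fibroblasts. They summed to 0.29 to 0.91 TPM in VEH and 0.10 to 0.40 TPM in CJ28. Most of this sum was COL1A1, with a mean of 0.65 TPM in VEH and 0.155 TPM in CJ28. TH was listed at 0 in every sample, and none of the 5 passed the filter on low values. In bulk samples, fewer cells with a transcript and less of it per cell cannot be told apart.

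In VEH the 9 genes spanned a wide range of TPM. TXNRD1, the cytosolic thioredoxin reductase, was the highest with 75.6 ± 2.09 TPM (SD, n = 4, here and for all such values), followed by NQO1, a quinone reductase, with 66.2 ± 1.96 TPM. NFE2L2 had 36.3 ± 3.02 TPM and KEAP1 20.4 ± 1.29 TPM. SRXN1, GCLC and KEAP1 followed NFE2L2 in that order, and the ranges of neighbours overlapped for SRXN1 with GCLC and for GCLC with KEAP1. HMOX1, heme oxygenase 1, was the lowest with 5.11 ± 0.415 TPM. In CJ28 the order changed at its lower end, where HMOX1 rose from the 9th to the 6th place and its range overlapped that of GCLC. In MET the order was that of VEH.

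All 9 genes differed between CJ28 and VEH, 8 of them higher and KEAP1 lower in CJ28 (adjusted p under 0.05 in limma on log2(TPM + 0.1), Benjamini-Hochberg over 16815 genes). Of all tested genes, 19.9% were called higher and 37.1% lower in this comparison, so a call by itself is common. After median-of-ratios scaling, 4925 genes were called higher and 4430 lower, against 3346 and 6231 as deposited, and the members remained at 8 higher and 1 lower. The CJ28 and VEH samples did not overlap for any of the 9 genes, a pattern that 17.7% of the tested genes showed with CJ28 higher and 32.7% with CJ28 lower. The median log2 fold change of the 9 genes was 0.49, against -0.13 for all tested genes.

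**Figure D1:**
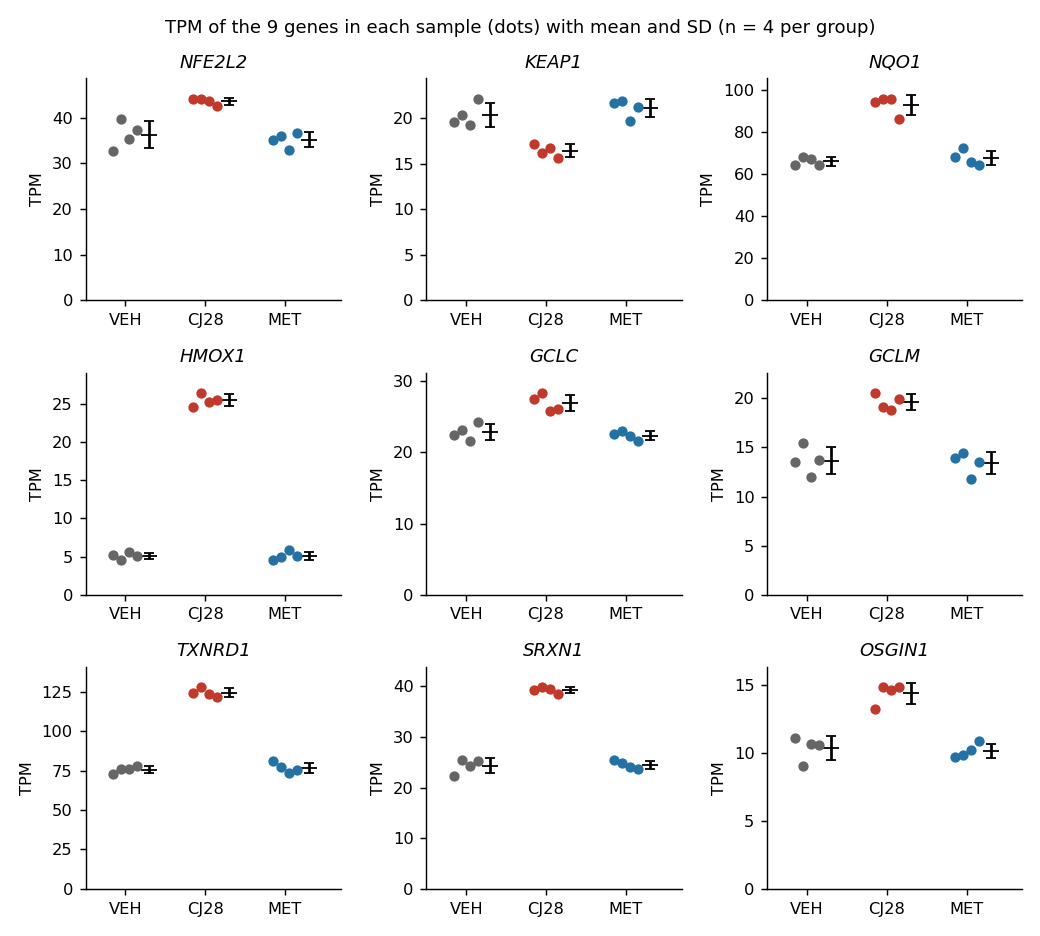
TPM of each of the 9 genes in the VEH, CJ28 and MET samples; dots are samples, bars the mean with its SD (n = 4), and each axis starts at 0. The CJ28 samples lie above all others for 8 genes and below all others for KEAP1, and HMOX1 goes from 5.11 TPM in VEH to 25.5 TPM in CJ28.

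The gene of NRF2 itself, NFE2L2 (ENSG00000116044.16, chromosome 2, 177227595 to 177392697 on GRCh38, minus strand), had 32.6, 39.8, 35.4 and 37.4 TPM in the VEH samples and 44.1, 44.0, 43.6 and 42.5 TPM in the CJ28 samples. The lowest CJ28 sample lay above the highest VEH sample, and the VEH samples were the more scattered. The log2 fold change was 0.27 (standard error 0.055, adjusted p = 0.00118 in limma), or 1.20-fold, and it was 0.40 above the all-gene median. After median-of-ratios scaling it was 0.42.

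KEAP1 (ENSG00000079999.14, chromosome 19, 10486125 to 10503558, minus strand), which encodes the adaptor that presents NRF2 for degradation, had 19.6, 20.4, 19.3 and 22.2 TPM in VEH and 17.2, 16.2, 16.8 and 15.6 TPM in CJ28. It was the only member that fell, with every CJ28 sample below every VEH sample. The log2 fold change was -0.30 (standard error 0.052, adjusted p = 3.0e-04 in limma), 0.17 below the median of all tested genes. After median-of-ratios scaling it was -0.15 and still called lower.

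HMOX1 (ENSG00000100292.17, chromosome 22, 35380361 to 35394207, plus strand), whose enzyme breaks heme into biliverdin, iron and carbon monoxide, showed the largest change of the 9. It had 5.18, 4.58, 5.59 and 5.08 TPM in VEH and 24.6, 26.4, 25.3 and 25.5 TPM in CJ28. All CJ28 samples were far above all VEH samples, with a spread of 0.772 TPM (SD) between them. The log2 fold change was 2.30 (standard error 0.077, 95% interval 2.13 to 2.47, adjusted p = 1.1e-10 in limma), or 4.92-fold. The intervals of the other 8 members ended at or below 0.79.

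NQO1 (ENSG00000181019.13, chromosome 16, 69706996 to 69726668, minus strand), which reduces quinones without forming radicals, had 64.4, 68.3, 67.4 and 64.7 TPM in VEH and 94.5, 96.1, 95.9 and 86.2 TPM in CJ28. The CJ28 samples were all higher, although the CJ28 sample of replicate 4 stood below the other 3. The log2 fold change was 0.49 (standard error 0.045, adjusted p = 1.2e-06 in limma), or 1.41-fold. NQO1 is also a target of the aryl hydrocarbon receptor, whose genes are given further on.

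GCLC and GCLM encode the catalytic and the modifier subunit of glutamate-cysteine ligase, the rate-limiting enzyme of glutathione synthesis. GCLC (ENSG00000001084.13, chromosome 6, 53497341 to 53616970, minus strand) had 22.5, 23.1, 21.6 and 24.3 TPM in VEH and 27.5, 28.4, 25.9 and 26.1 TPM in CJ28, the smallest rise among the 8 higher genes. Its log2 fold change was 0.24 (standard error 0.044, adjusted p = 5.4e-04 in limma), or 1.18-fold, and 0.39 after median-of-ratios scaling. GCLM (ENSG00000023909.10, chromosome 1, 93885199 to 93909456, minus strand) had 13.5, 15.4, 12.0 and 13.8 TPM in VEH and 20.6, 19.1, 18.8 and 20.0 TPM in CJ28. Its samples were the more scattered of this pair in VEH, and its log2 fold change was 0.52 (standard error 0.077, adjusted p = 8.6e-05 in limma), or 1.44-fold.

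TXNRD1 (ENSG00000198431.16, chromosome 12, 104215779 to 104350307, plus strand), which returns oxidized thioredoxin to its reduced form, had 72.7, 76.0, 76.1 and 77.6 TPM in VEH and 124, 128, 124 and 121 TPM in CJ28. Of the 9 genes it had the smallest standard error, and the groups were far apart relative to the scatter within them. The log2 fold change was 0.72 (standard error 0.034, adjusted p = 3.1e-09 in limma), or 1.64-fold. SRXN1 (ENSG00000271303.1, chromosome 20, 646615 to 653370, minus strand), sulfiredoxin, which repairs overoxidized peroxiredoxins, had 22.3, 25.5, 24.4 and 25.3 TPM in VEH and 39.3, 39.9, 39.5 and 38.5 TPM in CJ28. The CJ28 samples lay close together, and the log2 fold change was 0.69 (standard error 0.044, adjusted p = 4.2e-08 in limma), or 1.61-fold.

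OSGIN1 (ENSG00000140961.14, chromosome 16, 83931311 to 83966332, plus strand), the oxidative stress induced growth inhibitor 1, had 11.1, 9.02, 10.7 and 10.6 TPM in VEH and 13.2, 14.8, 14.6 and 14.8 TPM in CJ28. The groups did not overlap, and the CJ28 sample of replicate 1 stood below the other 3. The log2 fold change was 0.47 (standard error 0.067, adjusted p = 5.8e-05 in limma), or 1.39-fold. MLYCD overlaps the OSGIN1 locus on the same strand and had 1.61 TPM in VEH and 1.76 TPM in CJ28. Reads of KEAP1, NFE2L2, GCLC, SRXN1 and TXNRD1 could also be shared with entries on their strand, and the most abundant of these, RPL18AP3 inside TXNRD1, had 7.16 TPM in VEH and 7.88 TPM in CJ28.

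**Figure D2:**
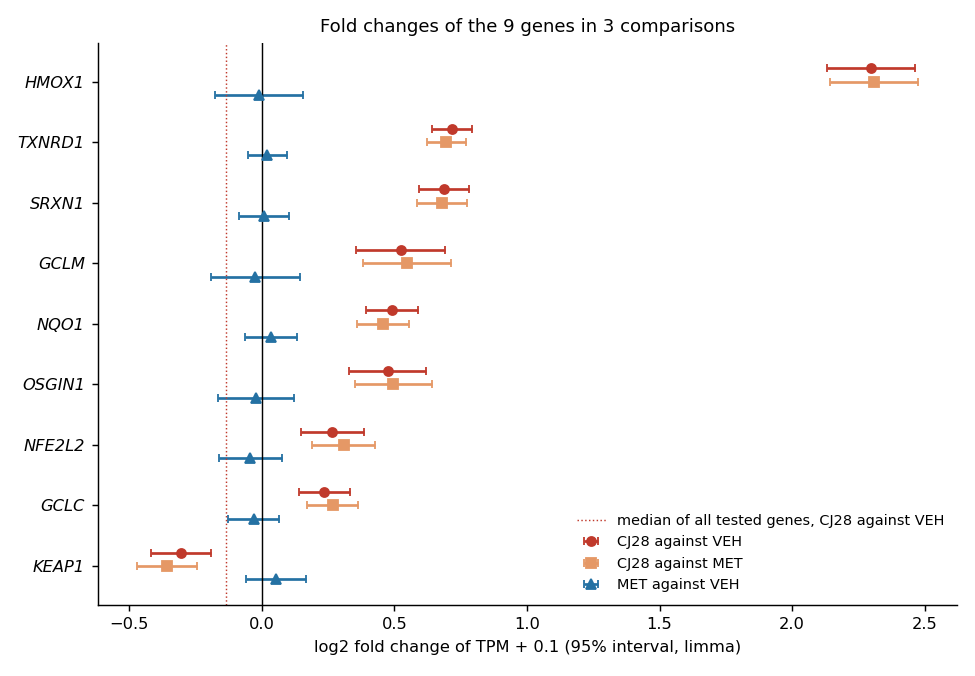
Log2 fold changes of TPM + 0.1 from limma with 95% intervals for CJ28 against VEH (circles), CJ28 against MET (squares) and MET against VEH (triangles); the dotted line is the median of all tested genes for CJ28 against VEH. HMOX1 stands at 2.30, the other 7 higher genes lie between 0.24 and 0.72, KEAP1 is at -0.30, and every interval for MET against VEH includes 0.

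Ratios of members within a sample do not depend on how the library is scaled, and both ratios examined were higher in CJ28. The NFE2L2 to KEAP1 ratio, of the regulator to its repressor, was 1.66, 1.95, 1.83 and 1.68 in the VEH samples and 2.56, 2.71, 2.60 and 2.72 in the CJ28 samples. It rose from 1.78 ± 0.135 to 2.65 ± 0.0787, a log2 difference of 0.57 (exact permutation test, two-sided, p = 0.0286, below which groups of 4 cannot go). Every CJ28 sample was already above VEH for NFE2L2 and below it for KEAP1. The p-value of their ratio followed from that and is not a further result. The GCLM to GCLC ratio, of the modifier to the catalytic subunit, was 0.600, 0.667, 0.554 and 0.567 in VEH and 0.749, 0.673, 0.727 and 0.766 in CJ28. It rose from 0.597 ± 0.0504 to 0.729 ± 0.0406, a log2 difference of 0.29 (two-sided exact permutation test, p = 0.0286), although the highest VEH and the lowest CJ28 sample nearly touched.

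**Figure D3:**
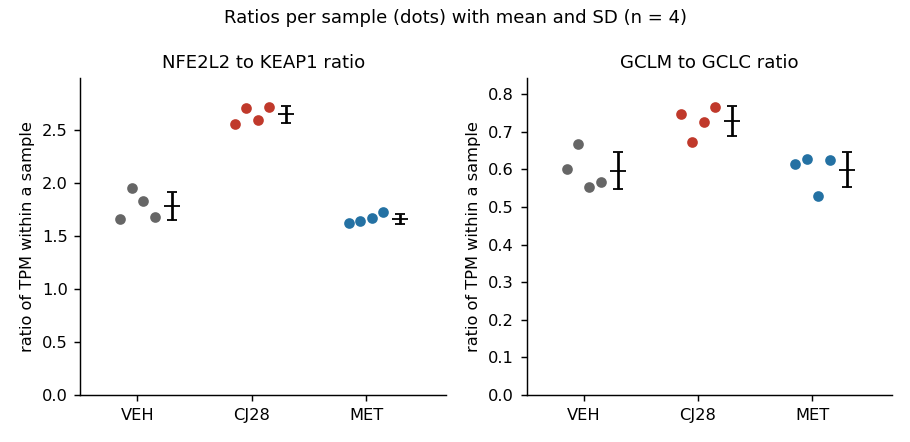
Ratio of NFE2L2 to KEAP1 TPM (left) and of GCLM to GCLC TPM (right) in each sample, with mean and SD (n = 4 per group) and axes from 0. The CJ28 samples are the highest in both panels, with means of 2.65 and 0.729 against 1.78 and 0.597 in VEH.

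With MET, 0 of the 9 genes were called against VEH in limma, and 0 had an unadjusted p under 0.05. Of all tested genes, 0% were called higher and 0.00595% lower, and samples that did not overlap were seen in 0.779% (MET higher) and 2.03% (MET lower), in neither case a member. The single gene called was the histone gene H4C12. HMOX1 had 4.49, 4.93, 5.83 and 5.06 TPM in the MET samples, which straddled the VEH samples. TXNRD1 had 80.8, 77.5, 73.6 and 75.1 TPM and NQO1 68.5, 72.4, 66.0 and 64.4 TPM, each again overlapping VEH. The log2 fold changes ran from -0.04 for NFE2L2 to 0.05 for KEAP1, with adjusted p between 0.96 and 0.995 in limma. The 95% intervals ran from -0.05 to 0.10 for TXNRD1, the narrowest, and from -0.19 to 0.14 for GCLM, and each included 0. The NFE2L2 to KEAP1 ratio was 1.66 ± 0.0456 in MET against 1.78 ± 0.135 in VEH (two-sided exact permutation test, p = 0.171), and the GCLM to GCLC ratio 0.599 ± 0.047 against 0.597 ± 0.0504 (two-sided exact permutation test, p = 1).

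CJ28 and MET were also compared directly at their common dose of 30 µM and time of 24 h. Again 8 members were called higher and KEAP1 lower in CJ28, against 20.9% and 34.6% of all tested genes. None of the 9 overlapped between the treatments, as for 18.9% (CJ28 higher) and 31.3% (CJ28 lower) of tested genes. HMOX1 had a log2 difference of 2.31 (95% interval 2.14 to 2.48, adjusted p = 1.1e-10 in limma), SRXN1 0.68, TXNRD1 0.70, GCLM 0.55, OSGIN1 0.50, NQO1 0.46, NFE2L2 0.31 and GCLC 0.27. KEAP1 had -0.36 (standard error 0.052, adjusted p = 8.1e-05 in limma), and the largest adjusted p among the 9 was 3.9e-04. The ratio of NFE2L2 to KEAP1 differed by 0.67 and that of GCLM to GCLC by 0.28 on the log2 scale (two-sided exact permutation test, p = 0.0286 for each). For NFE2L2 to KEAP1 the p-value again followed from the separation of both genes. The 3 comparisons share samples, CJ28 in 2 of them and VEH in 2 of them, and are not independent of each other.

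Genes of the wider pathway were called in both directions, as were tested genes at large. Of 69 further genes in 7 lists by role, 61 passed the filter, and 14 were called higher, 31 lower and 16 neither for CJ28 against VEH. Of all tested genes, 19.9% were called higher and 37.1% lower, which is the background for each list that follows. The median log2 fold change of the 61 was -0.10, close to the -0.13 of all tested genes. After median-of-ratios scaling 21 of them were called higher and 19 lower, against 4925 and 4430 of all 16815 tested genes. With MET, 0 of these 61 were called in limma, and 1, the heme transporter gene SLC48A1, had an unadjusted p under 0.05.

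Among the proteins that act with or on NRF2, 3 of 11 genes were called higher and 6 lower, and 4 and 5 after median-of-ratios scaling. The 3 were small MAF genes, which encode the DNA-binding partners of NRF2. MAFG had 7.88, 7.31, 7.40 and 7.59 TPM in VEH and between 15.9 and 17.5 TPM in CJ28 (SD 0.745 TPM), and its groups did not overlap. MAFF rose from 0.855 ± 0.058 to 2.26 ± 0.283 TPM (adjusted p = 4.7e-07 in limma), a low level at which a change is understated on this scale. MAFK was called narrowly (log2 fold change 0.39, adjusted p = 0.0496 in limma), its groups overlapped, and the call was lost without any 1 of VEH replicates 1, 2 and 4, of the 4 CJ28 samples or of MET replicates 2, 3 and 4. Without CJ28 replicate 4, the highest for MAFK, the log2 fold change was 0.26. CUL3, the scaffold of the ligase that KEAP1 serves, had 9.56, 10.2, 9.80 and 10.8 TPM in VEH and 5.82, 4.84, 4.84 and 5.29 TPM in CJ28. Its log2 fold change was -0.95 (standard error 0.066, adjusted p = 9.7e-08 in limma), a larger fall than that of KEAP1. RBX1, the RING subunit of the same ligase, fell by 0.72 on the log2 scale, and NFE2L3, a relative of NFE2L2, fell by 0.87. SQSTM1, whose product p62 competes for KEAP1, had a log2 fold change of -0.22 that was -0.07 and not called after median-of-ratios scaling. BACH1, the repressor of HMOX1, was not called (log2 fold change -0.09, adjusted p = 0.422 in limma).

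Of 10 tested glutathione genes, 4 were called higher and 4 lower, and 6 and 2 after median-of-ratios scaling. The 2 chains of the cystine importer rose most. SLC7A11 went from 9.52 ± 0.762 to 28.1 ± 1.15 TPM (log2 fold change 1.55), and SLC3A2 from 54.8 ± 2.08 to 217 ± 2.87 TPM (log2 fold change 1.98). GLRX, a glutaredoxin, had a log2 fold change of 0.60. The glutathione transferase GSTA4 fell from 23.0 ± 1.24 to 9.93 ± 1.20 TPM (log2 fold change -1.21), and MGST1 had -0.53. GSTM3 (log2 fold change -0.26) and GPX4 (-0.14) were called lower as deposited, and after median-of-ratios scaling GSTM3 was at -0.11 and GPX4 at 0.01. GSS (0.05), the second enzyme of the synthesis, and GSR (0.10), glutathione reductase, were not called as deposited, and both were called higher after median-of-ratios scaling, at 0.20 and 0.25 (adjusted p = 0.00333 and 0.00157 in limma).

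Of the 10 genes in the thioredoxin and peroxiredoxin list, 0 were called higher and 9 lower. After median-of-ratios scaling 1 was higher and 6 lower, and PRDX6 turned from -0.10 to 0.06. PRDX1, a peroxiredoxin of the cytosol, had 154, 163, 153 and 149 TPM in VEH and 78.2, 73.7, 79.0 and 68.9 TPM in CJ28. All CJ28 samples were well below the VEH samples, and the log2 fold change was -1.05 (standard error 0.047, adjusted p = 1.7e-09 in limma). PRDX2 had a log2 fold change of -0.71 and TXNIP, the thioredoxin-interacting protein, -1.22. TXN, thioredoxin itself, was at 164 TPM in VEH and 173 TPM in CJ28 and was not called as deposited (log2 fold change 0.08, adjusted p = 0.0856 in limma). After median-of-ratios scaling TXN was the gene of this list called higher, at 0.23 (adjusted p = 8.1e-04 in limma). TXNRD2, the mitochondrial reductase, fell by 0.38 on the log2 scale where TXNRD1 rose by 0.72. The 4 superoxide and peroxide removing genes were all called lower, led by SOD1 with -0.79 and SOD2 with -0.67. After median-of-ratios scaling 2 of the 4 were called lower. The SOD2 value is from an entry that overlaps a second SOD2 entry. SOD3 had a log2 fold change of -0.57 with overlapping groups, and its call was lost without any 1 of VEH replicates 1, 2 and 4 or of CJ28 replicates 1, 2 and 3 (-0.55 to -0.49).

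Of 8 heme and iron genes, 4 were called higher and 1 lower, and 6 and 0 after median-of-ratios scaling. FTL and FTH1, the ferritin chains that store the iron released by heme oxygenase, were the most abundant. FTL had 348, 318, 328 and 327 TPM in VEH and 598, 620, 630 and 630 TPM in CJ28, a log2 fold change of 0.91. FTH1 was more scattered, at 304 ± 42.7 TPM in VEH and 505 ± 91.9 TPM in CJ28, with a log2 fold change of 0.73, and SLC48A1 had 0.73. HMOX2, the constitutive heme oxygenase, was not called (log2 fold change -0.07, adjusted p = 0.316 in limma). BLVRA, biliverdin reductase A, was called lower at -0.22 and lost the call after median-of-ratios scaling at -0.07.

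Of 7 genes that supply NADPH, 1 was called higher and 3 lower, against 2 and 2 after median-of-ratios scaling and 2 and 1 without the 5 structural RNAs. The higher call gained by median-of-ratios scaling was PGLS (0.05 as deposited, 0.20 scaled). IDH1, the cytosolic isocitrate dehydrogenase, rose to 53.7 ± 1.74 TPM in CJ28 (log2 fold change 0.94), and PGD fell from 23.1 ± 3.78 to 13.5 ± 3.05 TPM (log2 fold change -0.79). TALDO1 and TKT were called lower at -0.28 and -0.26, and TKT was no longer called after median-of-ratios scaling at -0.11. TALDO1 lost its call when TPM were recomputed without the 5 structural RNAs, at -0.14. ME1 (-0.10), malic enzyme and a familiar NRF2 target, was not called. In the detoxification and export list, 11 of 17 genes were tested, with 2 called higher and 4 lower, and 2 and 2 under either scaling. AKR1C3 (log2 fold change 0.79) and AKR1C2 (0.48) rose, though these aldo-keto reductases belong to a family of similar genes between which reads could have been split. AKR1B1 (-0.49), PTGR1 (-0.32), NQO2 (-0.29) and EPHX1 (-0.28) were called lower, and NQO2 (-0.14) and EPHX1 (-0.13) were not called after median-of-ratios scaling.

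**Figure D4:**
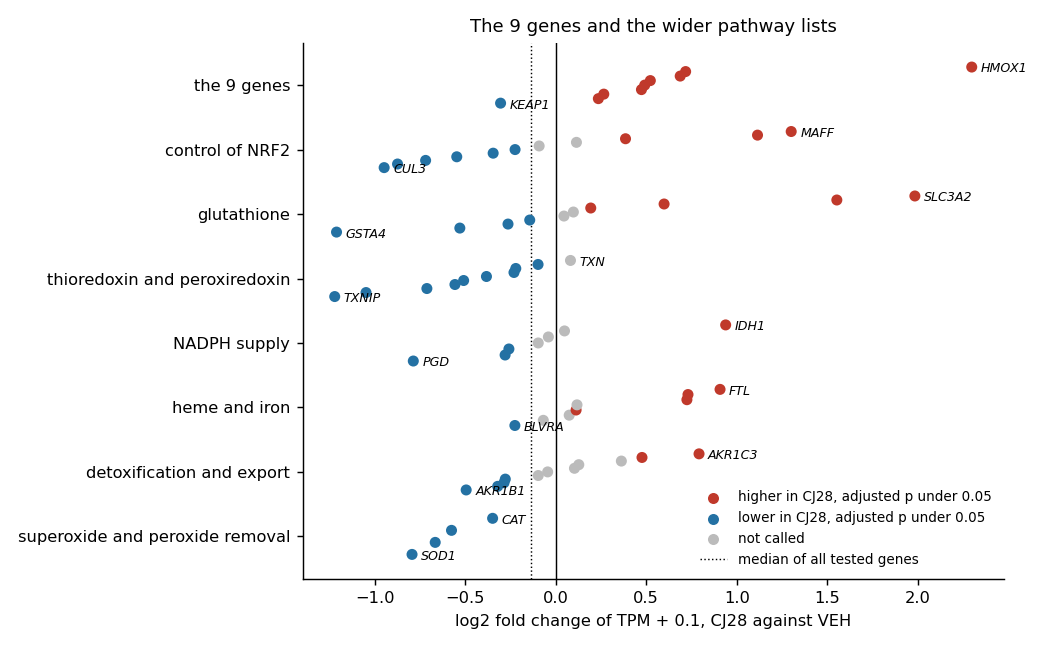
Log2 fold changes of TPM + 0.1 for CJ28 against VEH of the 9 genes and of the tested genes in 7 lists by role; red is called higher, blue called lower, grey not called, and the dotted line is the median of all tested genes (-0.13). The 9 genes lie to the right except KEAP1, and the thioredoxin and peroxiredoxin list lies to the left except TXN (0.08, called higher at 0.23 after median-of-ratios scaling), with PRDX6 turning to 0.06 after median-of-ratios scaling.

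Other regulators share targets with NRF2, and their own genes moved in the same samples. Of the aryl hydrocarbon receptor genes CYP1A1, CYP1B1, TIPARP and AHRR, 4 of 4 were called higher in CJ28, against 19.9% of all tested genes. CYP1A1 had 0.39 to 0.71 TPM in VEH and 62.9 to 67.9 TPM in CJ28, and AHRR had a log2 fold change of 2.22 from an entry that overlaps a second AHRR entry. Of 5 genes tied to the stress factor ATF4, which also acts on SLC7A11 and on HMOX1, 5 were called higher in CJ28. TRIB3 had a log2 fold change of 3.53, DDIT3 3.19, ASNS 1.98, CHAC1 1.89 and ATF4 0.26. With MET, 0 of these 9 genes were called. Only DDIT3 did not overlap VEH, at 17.5 to 18.9 TPM in MET against 16.4 to 17.1 TPM in VEH. Its unadjusted p was 0.0293 and its adjusted p 0.933 in limma, and 0.779% of all tested genes showed such a separation with MET higher. The adrenocortical genes, 5 of 5, were called lower in CJ28, from -0.69 for CYP21A2 to -2.35 for CYP17A1, against 37.1% of all tested genes. The part of these programmes in the values of the 9 genes was not tested.

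Across the 12 samples, the genes most like each member were sought among 8072 genes (mean TPM 5 or more) by the Pearson correlation of log2(TPM + 0.1), which here mostly follows the step between CJ28 and the other groups. HMOX1 was most like SLC3A2 (r = 0.997), WARS1 and SHMT2. TXNRD1 was most like PCK2 (r = 0.997), EIF5 and XPOT, while SRXN1 was most like SAT2 (r = 0.997), HSP90B1 and its fellow member TXNRD1 (r = 0.996). NQO1 was nearest to USO1 (r = 0.994), NACA and SNHG15. The closest to NFE2L2 was TRPM7 (r = 0.977), to KEAP1 CHD6 (r = 0.978), to OSGIN1 DNAL4 (r = 0.982), to GCLM C10orf82 (r = 0.975) and to GCLC NOL7 (r = 0.968).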

How the data were processed

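The authors removed ribosomal RNA and prepared stranded total RNA libraries. Per the labels and the methods, reads were trimmed with Cutadapt (version 2.8), aligned to GRCh38 with STAR (version 2.7.10b) and quantified per gene with RSEM (version 1.3.3). The annotation release is not given in the sources used here. The authors deposited TPM to 2 decimals, which keep no depth, so the counts that their DESeq2 comparison used were not analysed here.

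All 12 samples entered 1 limma fit (version 3.58.1, R version 4.3.3; trended eBayes, no covariates) of log2(TPM + 0.1) over 16815 genes (TPM 0.5 or more in 4 or more samples), with two-sided p adjusted by Benjamini-Hochberg and called under 0.05. Fold changes on this scale understate low genes. Ratios were compared by exact permutation tests (scipy version 1.17.1). The limma step was tested on simulated data with known changes. The permutation step was run only on small made-up groups, separated or identical. No pair of samples was identical.

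The 9 genes, the lists and the tests were chosen with earlier results of these data known. From each list, the text names up to 3 genes per direction with the largest called change and a mean TPM of at least 1, and all regulator and cell type markers. SQSTM1, BACH1, GPX4, GSS, GSR, PRDX6, TXN, TXNRD2, HMOX2, ME1, PGLS and EPHX1 were named after their values were seen. SOD2 and AHRR have 2 overlapping entries each, and the entry with the lower Ensembl number was used. Alternatives were other pseudocounts, filters and scalings, the groups compared alone, a replicate block, and leaving out each sample.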

Additional observations from a re-analysis of the deposited data

Results flagged for a closer look

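In the members, a CJ28 sample stood apart from the other 3 of its group for NQO1, at 86.2 TPM against a highest value of 96.1 TPM, and for OSGIN1, at 13.2 TPM against 14.8 TPM. In both, the gap to the nearest sample took more of the range of the group than Dixon's 95% limit for 4 samples allows, and both samples still lay above every VEH and MET sample. The GCLM to GCLC ratio had a MET sample at 0.529, where the highest was 0.628. By the same limit, single samples stood apart for CHAC1 in VEH (3.68 TPM), GSTA4 in VEH (24.9 TPM), GSTM3 in CJ28 (47.2 TPM), MAFK in CJ28 (2.93 TPM), NQO2 in MET (6.67 TPM), CYP11A1 in CJ28 (35.0 TPM), CYP17A1 in VEH (47.3 TPM) and CYP21A2 in CJ28 (16.9 TPM). Of the groups checked, 11 of 160 stood out in this way, and chance gives about 5%.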

How the results depend on the processing

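The calls of the 9 genes held in all 3 comparisons under each of the 20 alternatives, and the count for CJ28 against VEH was 8 higher and 1 lower in every case. For CJ28 against VEH, the log2 fold change of HMOX1 ran from 2.12 (a pseudocount of 1) to 2.45 (median-of-ratios scaling), and that of KEAP1 from -0.31 to -0.15. With each sample left out in turn, HMOX1 stayed between 2.25 and 2.34 and KEAP1 between -0.33 and -0.26. The log2 differences of both ratios between CJ28 and VEH moved by less than the spread between samples with single samples left out (0.54 to 0.62 for NFE2L2 to KEAP1, 0.25 to 0.34 for GCLM to GCLC) or with group means taken first, and exact sign flips within the replicate number cannot give a p under 0.125. The log2 fold changes of NFE2L2 and GCLC rose to 0.42 and 0.39 under median-of-ratios scaling. The count of all genes called for MET against VEH is 1 (0 higher and 1 lower). It was 0 with pseudocounts of 1 and 0.01 and with a mean TPM of at least 1 (0 lower in each), 5 over all genes above 0 (2 higher, 3 lower), and between 1 and 2 (0 to 1 higher) with single samples left out, where VEH replicate 4 and MET replicate 4 gave the 2. At an unadjusted p under 0.05 the count was 874. The wider pathway genes called lower for CJ28 against VEH went from 31 to 19 under either scaling. With a replicate block, 9546 genes were called for CJ28 against VEH, and no member changed its call. Samples of equal number did not deviate together (mean correlation 0.02 for CJ28 and VEH, -0.05 for CJ28 and MET, -0.02 for MET and VEH). With 4 samples per group this does not settle whether the numbers pair them. Without read numbers, no counting error or detection limit can be set.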

Other observations

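Within groups, the deviations of the 9 genes from their group means on log2(TPM + 0.1) had a median correlation of 0.33 over the 36 pairs of members and 12 samples, which share their libraries. The highest was 0.81 for TXNRD1 with SRXN1, and the lowest was -0.88 for HMOX1 with GCLM. Both pairs were singled out after their values were seen.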
